A study of Mus musculus with 160 samples.

Results

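NF-κB is a family of transcription factors that stay in the cytoplasm bound to IκB proteins until a signal from a cytokine or microbial receptor leads to IκB breakdown. Among the genes it switches on are several that end the response, so that the pathway carries its own brake. In the gut this brake keeps the answer to commensal microbes and to barrier damage in bounds, and *TNFAIP3* (A20) is a known risk locus of inflammatory bowel disease. The 10 genes described here, of 39179 in the files, were taken by name and not by their values. They are *Tnfaip3*, *Tnip1* and *Tnip3* (the ubiquitin-editing enzyme A20 and its binding partners), *Birc3* (the ubiquitin ligase cIAP2), *Nfkbia* and *Nfkbie* (the inhibitors IκBα and IκBε), *Nfkbiz* and *Bcl3* (nuclear IκB proteins that act at NF-κB target genes), *Zc3h12a* (Regnase-1, a nuclease that degrades cytokine messenger RNA) and *Tnfaip2* (a gene induced by TNF).

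The counts come from total RNA, freed of ribosomal RNA, of distal colon tissue in 160 samples, which belong to 4 knockout lines with wild-type controls in each. Dextran sulfate sodium (DSS), which injures the colon epithelium, was given for 5 days and followed by water. The targeted genes act in immune cells: *Nckap1l* (Hem1) and *Dock2* in actin remodelling, *Gpsm3* on G proteins and *Dok3* as a signalling adaptor. The *Nckap1l* line (16 knockout and 15 wild-type samples, strain C57BL6/J) was collected at day 12, and its labels give no dose. The study's methods name a dose for it that was slightly below that of the other lines. The *Dock2* line (18 knockout, 24 wild-type) and the *Gpsm3* line (20 and 20) were C57BL6/J at day 10 with 3% DSS. The *Dok3* line (26 and 21) was strain 129 at day 10, labelled with 3.5% DSS. For *Dok3* mice the study's methods also name a first round at 3%, and whether any of these samples belong to it is not given. Females made up 4 of the knockout and 8 of the wild-type samples in the *Nckap1l* line and 8 and 12 in the *Dock2* line, and the other lines were labelled male only. Per the study's methods the knockouts were homozygous and were compared with littermates from crosses of heterozygous mice, housed together. Untreated mice were also profiled, but the labels do not say which samples received DSS, so treated and untreated samples are pooled in every value below. In whole tissue, fewer cells of a type and less RNA per cell cannot be told apart.

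Totals ran from 4344988 to 19993833 counts per sample (median 15989625), and 3 counts, the limit of what a count of 0 allows, amounted to 0.15 to 0.69 CPM (counts scaled to a common library size). After adjustment over all genes, the RNA of the targeted gene was lower in the labelled knockouts in the *Gpsm3* line alone (log2 difference -2.06, adjusted p = 0.0001 by edgeR's quasi-likelihood test). By the same test the log2 difference was -1.09 for *Nckap1l* (unadjusted p = 0.0118, adjusted p = 0.9996) and -0.62 for *Dock2* (unadjusted p = 0.00064, adjusted p = 0.210). It was -0.48 for *Dok3* (unadjusted p = 0.223, adjusted p = 0.9996). The ranges of both genotypes overlapped in every line, so genotypes are given as labelled. In 5 samples of the *Dok3* line the sex-linked genes did not match the label. The list of genes that mark skin keratinocytes had a mean log2 CPM above 5 in 7 knockout and 8 wild-type samples of the *Nckap1l* line, and in 1 and 4 of the *Dock2*, 2 and 1 of the *Gpsm3* and 4 and 5 of the *Dok3* line. These are called the skin-high samples below. All 8 colon epithelium markers, among them *Krt8* with a median of 2430 CPM, were present.

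The promoters of the genes are shown first because NF-κB sites in them are the textbook basis of the feedback. RefSeq start sites on GRCm38.p6 gave windows from 250 bases before to 50 bases after the start for 9 of the 10 genes, 10 windows in all, and *Nfkbiz* had none. The consensus NF-κB motif was searched by name on both strands. It was found in 1 window each of 6 genes, against 4.5% of 32851 windows of 27025 genes. It lay at position -125 (plus strand) and -12 (minus strand) from the start of *Tnfaip3*, at -29 in *Nfkbia*, -106 in *Nfkbie*, 3 in *Bcl3* and -54 in *Tnip3*, and from -58 in *Tnip1*, where 3 overlapping matches formed 1 run. The windows of *Tnfaip2*, *Birc3* and *Zc3h12a* held no match. A looser form, GGGNNNNNCC, occurred in all 10 windows and in 50.8% of all windows, so it set nothing apart. In the windows below, written along the gene's strand, capitals mark the consensus match. They are shown for *Tnfaip3* (chr10:19015361-19015660, minus strand) and for *Nfkbia* (chr12:55492598-55492897, minus strand), the gene of the main inhibitor. *Tnip1* (chr11:54962891-54963190, minus strand) is shown because it went against most of the other genes across samples, and *Birc3* (chr9:7873121-7873420, minus strand) because it followed *Tnfaip3* most closely of the other 9. A match describes the letters and is not a measured site.
Tnfaip3: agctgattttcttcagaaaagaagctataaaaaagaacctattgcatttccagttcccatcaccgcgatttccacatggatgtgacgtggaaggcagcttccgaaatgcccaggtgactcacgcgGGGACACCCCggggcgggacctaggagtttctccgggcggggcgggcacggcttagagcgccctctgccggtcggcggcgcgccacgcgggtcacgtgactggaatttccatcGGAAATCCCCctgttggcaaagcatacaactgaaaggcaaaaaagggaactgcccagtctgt
Nfkbia: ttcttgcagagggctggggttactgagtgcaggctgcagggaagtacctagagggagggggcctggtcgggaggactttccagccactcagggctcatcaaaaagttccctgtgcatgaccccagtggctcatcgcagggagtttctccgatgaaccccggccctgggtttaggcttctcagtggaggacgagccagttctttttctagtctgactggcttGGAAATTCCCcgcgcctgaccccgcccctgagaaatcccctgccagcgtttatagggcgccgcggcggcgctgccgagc
Tnip1: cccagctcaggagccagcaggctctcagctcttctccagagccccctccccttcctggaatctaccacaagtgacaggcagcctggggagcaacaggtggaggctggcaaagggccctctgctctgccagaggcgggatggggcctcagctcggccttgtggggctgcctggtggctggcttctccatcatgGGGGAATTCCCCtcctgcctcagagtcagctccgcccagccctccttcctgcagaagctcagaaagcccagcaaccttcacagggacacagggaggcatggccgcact
Birc3: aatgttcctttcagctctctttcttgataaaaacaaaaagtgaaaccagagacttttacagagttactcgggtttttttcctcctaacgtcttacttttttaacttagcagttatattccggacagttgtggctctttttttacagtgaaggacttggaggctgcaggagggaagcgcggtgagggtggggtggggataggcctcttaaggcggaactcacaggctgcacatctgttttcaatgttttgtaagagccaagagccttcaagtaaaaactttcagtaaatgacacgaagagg

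All 10 genes were expressed in every sample, and none was near the counting limit. Levels of different genes were compared as CPM per kilobase of exon. By the median over the 160 samples the order was *Nfkbia* at 44.2, *Tnip1* at 36.9, *Birc3* at 21.2, *Nfkbiz* at 18.9, *Bcl3* at 17.9, *Zc3h12a* at 15.9, *Tnfaip3* at 12.8, *Tnfaip2* at 4.13, *Tnip3* at 4.11 and *Nfkbie* at 2.95 CPM per kilobase. Neighbours in this order mostly changed places between samples. *Birc3* was above *Nfkbiz* in 91 of 160 samples and *Tnfaip2* above *Tnip3* in 92, whereas *Tnip1* was above *Birc3* in 152 and *Tnfaip3* above *Tnfaip2* in 141. Per kilobase, *Nfkbia* RNA thus had the highest median of the 10, and *Tnfaip3* RNA lay in the lower part of the group. The length used was that of all annotated exons of a gene together, not of the transcripts present, and the order depends on it. In CPM alone the median was highest for *Tnip1* (130.5), and that of *Tnfaip3* (92.2) was above that of *Nfkbia* (71.2). Exons of *Tnfaip2* and *Bcl3* overlap genes on the other strand over 6.3% and 6.5% of their length, and the strand setting of the counting is not given in the sources used here.

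**Figure D1:**
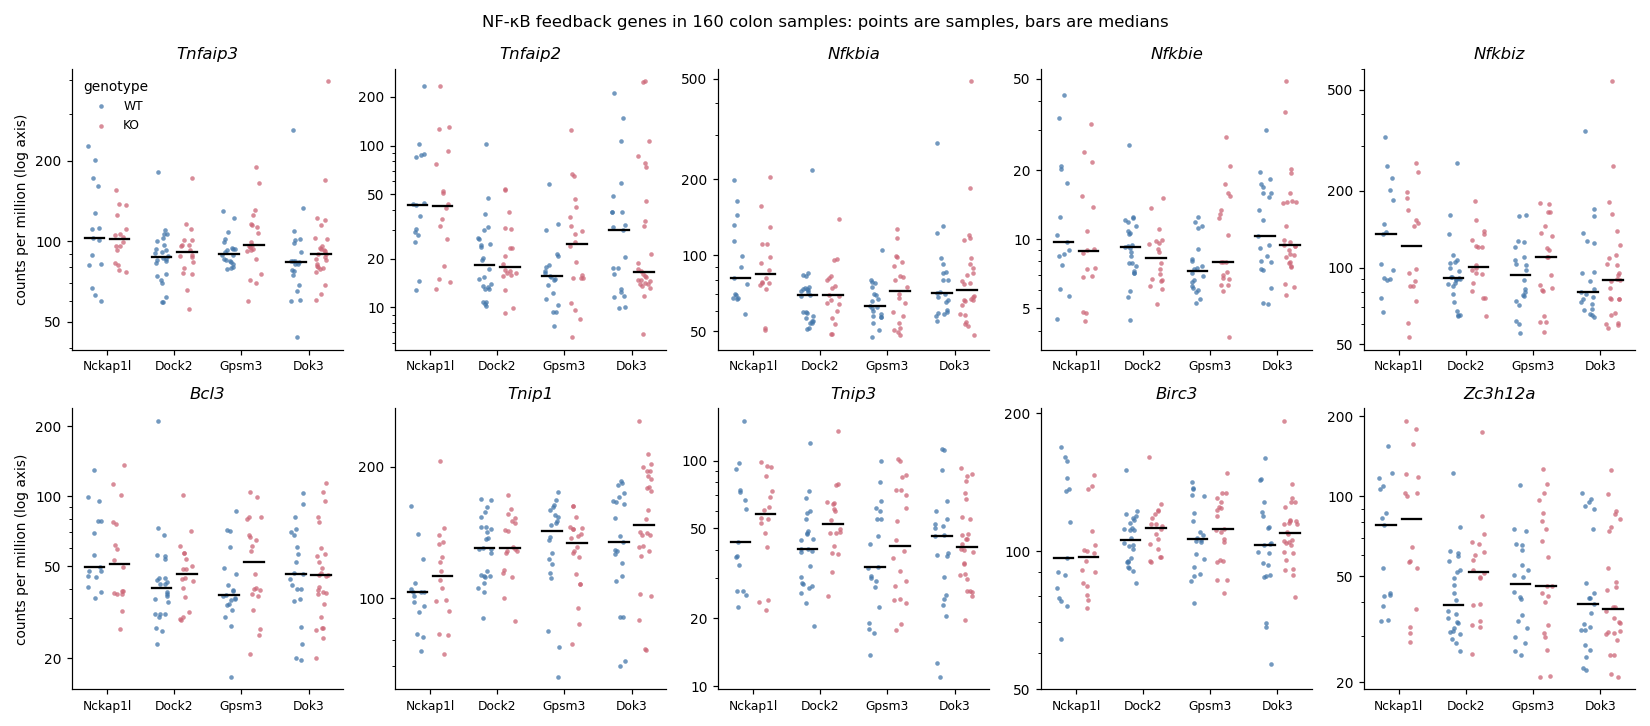
Levels of the 10 genes in CPM (log axis) in the 160 samples, by knockout line on the horizontal axis and by genotype (blue wild type, red knockout); each point is 1 sample and each bar a group median. Wild-type and knockout points overlap in every panel, and Tnfaip2 has the widest spread, from 6.56 to 250 CPM.

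*Tnfaip3* (ENSMUSG00000019850, chr10:19000910-19015657, minus strand) encodes A20, which trims and adds ubiquitin chains on signalling proteins below the TNF and Toll-like receptors. Its lowest, median and highest values were 59.9, 103 and 227 CPM in wild-type and 76.5, 102 and 156 CPM in knockout samples of the *Nckap1l* line. They were 59.4, 87.4 and 182 CPM in wild-type and 55.9, 90.9 and 172 CPM in knockout samples of the *Dock2* line. *Gpsm3* wild types had 78.7, 90.0 and 130 CPM and *Gpsm3* knockouts 59.7, 96.5 and 190 CPM. The ranges overlapped in each of these lines, though only 8 of 15 wild-type *Nckap1l* samples lay within the knockout range and 13 of 20 *Gpsm3* knockouts within the wild-type range. In the *Dok3* line the values were 44.01, 83.6 and 259 CPM in wild type and 60.3, 89.4 and 396 CPM in knockouts. All but 5 of the 160 samples were within 2-fold of their line's median, and all 5 were above it. The highest was knockout sample 17 of the *Dok3* line (samples are numbered within a group in the order of their records), at 396 CPM, which was also highest of its line in *Nfkbia* (487 CPM), *Nfkbiz* (539 CPM), *Nfkbie* (48.7 CPM), *Birc3* (193 CPM) and *Zc3h12a* (126 CPM). Its 8 neutrophil markers (*S100a8*, *S100a9* and others) summed to 9380 CPM, against a group median of 53.7 CPM.

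*Tnip1* (chr11:54910785-54962917) encodes ABIN1, which brings A20 to its substrates. It was the steadier of the A20 partners, at 66.0 to 254 CPM over all samples, a 3.85-fold range. *Tnip3* (chr6:65525313-65634040), which encodes ABIN3, ran from 11.0 to 149 CPM, a 13.6-fold range. *Birc3* (chr9:7848699-7873186) encodes a ligase that places ubiquitin on RIPK1 at the TNF receptor. With 56.9 to 193 CPM, a 3.39-fold range, it had the narrowest range from lowest to highest sample, and every sample was within 2-fold of its line's median in all 4 lines. The standard deviation of its log2 CPM within a line was 0.184 to 0.391, against all-gene medians of 0.216 to 0.305. In the *Nckap1l* line that of *Tnip1* was smaller (0.335 against 0.391).

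The IκB genes spread more widely. *Nfkbia* (chr12:55489410-55492647) ran from 47.6 to 487 CPM and *Nfkbiz* (chr16:55811375-55838899) from 53.5 to 539 CPM, each about 10-fold (10.2 and 10.1), with the long tail above the median. *Nfkbie* (chr17:45555703-45563169) was at 3.76 to 48.7 CPM and *Bcl3* (chr7:19808462-19822770) at 16.7 to 210 CPM. *Zc3h12a* (chr4:125118423-125127840) ran from 21.01 to 192 CPM. The widest range was that of *Tnfaip2* (chr12:111442469-111455018), from 6.56 to 250 CPM, 38.1-fold. Its standard deviation of log2 CPM within a line was 0.77 to 1.33, above that of 95.7% to 98.0% of all genes in each line. In the *Dok3* line 15 of 47 samples were more than 2-fold above the line's median of this gene and 1 was below.

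Knockout and wild type were compared within each line, with treated and untreated samples pooled. The study modelled DSS treatment and its interaction with genotype when it derived its knockout signatures. The comparison here is a different one and does not test those signatures. None of the 10 genes passed the threshold (adjusted p under 0.05 by edgeR's quasi-likelihood test over all genes) between knockout and wild type in any line, nor by DESeq2 or limma-voom. The background was itself near 0, with 0% of 17947 genes called for *Nckap1l*, 0.034% of 17648 for *Dock2*, 0.00569% of 17560 for *Gpsm3* and 0% of 17612 for *Dok3*. At an unadjusted p under 0.05, 2 of the 10 passed in the *Gpsm3* line (4.86% of all genes did) and 0 in the *Nckap1l*, *Dock2* and *Dok3* lines (4.5%, 5.1% and 2.19% of all genes). The knockout-minus-wild-type difference of *Tnfaip3* was -0.18 ± 0.17 (log2, SE) in the *Nckap1l*, 0.03 ± 0.10 in the *Dock2*, 0.17 ± 0.10 in the *Gpsm3* and 0.18 ± 0.17 in the *Dok3* line. All 4 were below 2 standard errors. Without knockout sample 17 the value in the *Dok3* line was 0.007.

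Both genes of the *Gpsm3* line that passed before adjustment had positive differences, and neither passed after it. *Tnfaip2* had lowest, median and highest values of 7.63, 15.5 and 57.4 CPM in wild type and 6.56, 24.6 and 126 CPM in knockouts, a difference of 0.81 ± 0.29 (log2, SE; unadjusted p = 0.0090, adjusted p = 0.936 by edgeR). *Nfkbie* had 5.30, 7.26 and 12.5 CPM in wild type and 3.76, 7.98 and 27.9 CPM in knockouts, a difference of 0.49 ± 0.18 (unadjusted p = 0.0105, adjusted p = 0.936 by edgeR). The ranges overlapped in both. Of the 10 genes 9 had a positive difference in this line, with a median of 0.23 against 0.00318 over all genes. All 7 neutrophil markers tested in the same samples also had a positive difference (median 0.849), as did all 8 macrophage, 6 T cell and 5 B cell markers, with none called. Their summed CPM overlapped between genotypes, at 37.7 to 1100 for neutrophil markers in wild type and 41.9 to 1150 in knockouts. Positive differences were not limited to immune cell markers. They were found in 6 of 6 fibroblast, 5 of 5 endothelium, 5 of 5 tested striated muscle and 6 of 8 colon epithelium markers, with none called. Among smooth muscle markers 1 of 5 was positive, and among skin markers 0 of 3 tested. With the mean of the neutrophil markers as a covariate the difference of *Tnfaip2* was 0.40 and that of *Nfkbie* 0.25 (adjusted p = 0.976 for both by edgeR). Without the skin-high samples 4 of 10 passed before adjustment (*Tnfaip3*, *Tnfaip2*, *Nfkbie* and *Bcl3*), against 7.67% of all genes, and 0 after it. The difference of *Tnfaip3* was then 0.217 ± 0.093 (unadjusted p = 0.0249, adjusted p = 0.640 by edgeR).

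**Figure D2:**
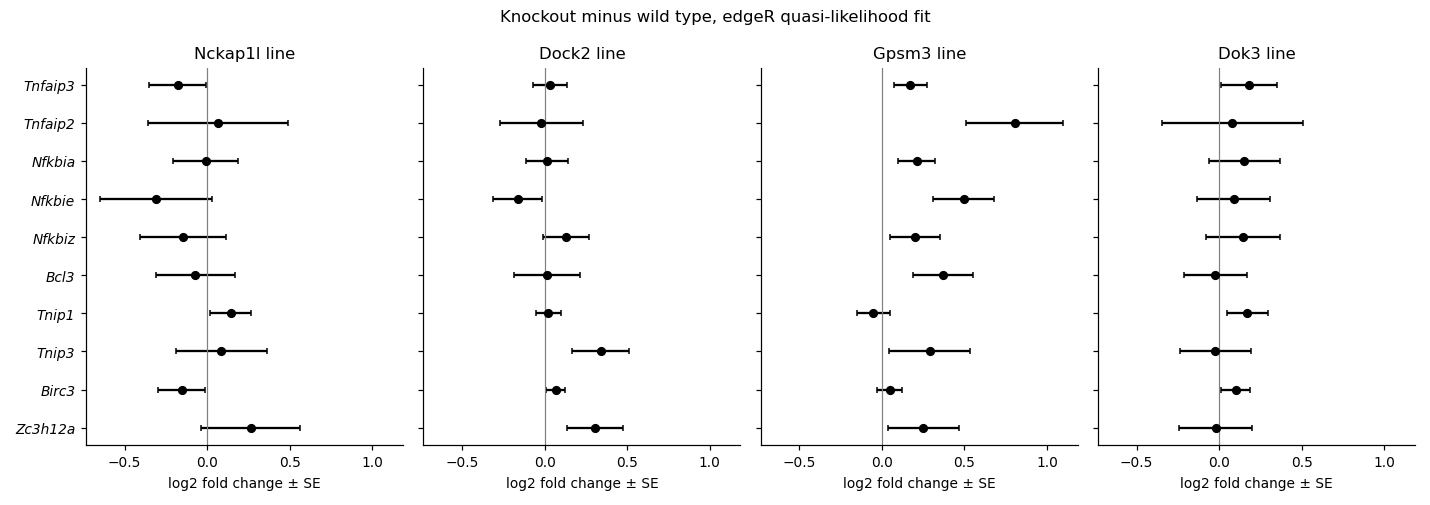
Knockout-minus-wild-type log2 fold change (horizontal axis) of the 10 genes in each line; points are estimates of edgeR's quasi-likelihood fit and bars are 1 SE to either side. In the Gpsm3 line 9 of 10 points lie above 0, with Tnfaip2 farthest at 0.81, and no point in any line passed the threshold after adjustment.

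In the other lines the median difference of the 10 genes was -0.04 (*Nckap1l*), 0.028 (*Dock2*) and 0.094 (*Dok3*), with 4, 8 and 7 positive. Without knockout sample 17 the *Dok3* median was -0.078 and 3 of 10 were positive. Without the skin-high samples the medians were -0.497, 0.004 and -0.013, with 1, 5 and 5 positive. The 5 B cell markers had negative differences in the *Nckap1l* and *Dock2* lines (medians of -2.58 and -0.857 on the log2 scale, all 5 at an unadjusted p under 0.05 and 0 after adjustment, by edgeR). Their summed CPM was 1.52 to 290 in wild-type and 1.36 to 76.9 in knockout samples of the *Nckap1l* line, and 3.14 to 85 and 8.95 to 60.9 in the *Dock2* line. Leaving out the skin-high samples, a choice made after the marker levels were seen, left 9 knockout and 7 wild-type samples of the *Nckap1l* line and moved *Tnfaip3* there from -0.18 to -0.58 ± 0.18 (unadjusted p = 0.0053, adjusted p = 0.36 by edgeR). *Nfkbie* moved to -1.20, *Tnfaip2* to -1.31 and *Birc3* to -0.42, again with none of the 10 called. Before adjustment 5 of 10 passed (*Tnfaip3*, *Tnfaip2*, *Nfkbia*, *Nfkbie* and *Birc3*), against 13.4% of all genes.

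The 82 other genes of the pathway fixed for comparison (NF-κB subunits, upstream kinases and adaptors, receptors, other feedback and RNA-decay genes, and ligands and targets) gave no call in any line either. Of those tested, 0 of 80 (*Nckap1l*), 0 of 79 (*Dock2*), 0 of 77 (*Gpsm3*) and 0 of 80 (*Dok3*) were called by edgeR. Before adjustment 1, 5, 16 and 1 passed, where 4.5%, 5.1%, 4.86% and 2.19% of all genes did. In the *Gpsm3* line the 13 tested ligands and targets, such as the monocyte chemokine gene *Ccl2*, had a median difference of 0.855 (12 positive), beside 0.849 for the neutrophil markers.

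Whether the knockout effect differed between lines was tested in 1 fit of all 160 samples. None of the 10 genes passed (edgeR), at a background of 0.69% of 19849 genes, and 0 passed before adjustment. The smallest p was that of *Nfkbie* (0.073, adjusted p = 0.955 by edgeR). Without the skin-high samples *Nfkbie* was called (adjusted p = 0.0220 by edgeR), the single member of 10, against 1.99% of genes.

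Wild-type mice of the 4 lines differed in 7 of the 10 genes (edgeR), but 35.1% of all genes did too, and the 10 genes largely move together across samples, so they are not 10 separate observations. The *Nckap1l*, *Dock2* and *Gpsm3* lines shared the strain, and the *Dock2* and *Gpsm3* lines also the day and dose. Apart from these shared settings, line, strain, day of collection, dose and experiment cannot be told apart here. *Tnfaip2* differed most clearly (adjusted p = 0.00042 by edgeR). Its lowest, median and highest values in wild type were 12.8, 42.8 and 234 CPM (*Nckap1l*) and 10.2, 18.3 and 102 CPM (*Dock2*). They were 7.63, 15.5 and 57.4 CPM (*Gpsm3*) and 9.95, 29.9 and 212 CPM (*Dok3*). The *Nckap1l* line, collected latest, was thus highest in the median, although the ranges of all 4 overlapped. The others that passed were *Nfkbie* (adjusted p = 0.0071 by edgeR), *Nfkbia* (0.0158), *Zc3h12a* (0.0192), *Tnip1* (0.0438), *Tnfaip3* (0.0456) and *Nfkbiz* (0.0475), and *Bcl3*, *Tnip3* and *Birc3* did not. With limma-voom, or with no filter on low counts, 4 of the 7 remained (*Tnfaip2*, *Nfkbia*, *Nfkbie* and *Zc3h12a*), and with the mean of the neutrophil markers as a covariate 3 did (*Tnfaip2*, *Nfkbie* and *Zc3h12a*). The medians of the summed neutrophil markers in wild type were 78.8, 67.8, 69.4 and 68.7 CPM in the *Nckap1l*, *Dock2*, *Gpsm3* and *Dok3* lines. Those of their mean log2 CPM, the measure used as the covariate, were 1.39, 1.44, 0.47 and 1.38, lowest in the *Gpsm3* line.

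By pairs of lines, the *Nckap1l* line stood above the *Gpsm3* line in 4 of 10 genes (12% of all genes were called), namely *Tnfaip2* by 1.73 ± 0.41 (log2, SE), *Nfkbie* by 0.90, *Zc3h12a* by 0.77 and *Nfkbia* by 0.68. It stood above the *Dock2* line in *Tnfaip2* by 1.36 and in *Zc3h12a* by 0.77 (7.63% of all genes called). Against the *Dok3* line it was lower in *Tnip1* (log2 difference -0.38) and passed in no other member (8.85% called). The *Gpsm3* line was below the *Dok3* line in *Tnfaip2* (log2 difference -1.29) and in *Nfkbie* (-0.67), where 28% of all genes were called. Between the *Dock2* and *Gpsm3* lines (0.267% called) and between the *Dock2* and *Dok3* lines (13.7% called) no member passed in edgeR's test. *Tnfaip3* passed in none of the 6 pairs. Its largest differences were those of the *Nckap1l* line from the *Dok3* line (0.44 ± 0.16, adjusted p = 0.059 by edgeR), the *Gpsm3* line (0.44 ± 0.16, adjusted p = 0.053) and the *Dock2* line (0.39 ± 0.15, adjusted p = 0.071). Without the skin-high samples 7 members passed between the *Nckap1l* and *Gpsm3* lines, 3 between the *Nckap1l* and *Dock2* lines and 2 between the *Nckap1l* and *Dok3* lines, with *Tnfaip3* among each, while 8.83%, 1.9% and 10.6% of all genes were called in those fits.

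Females and males could be compared in the *Nckap1l* and *Dock2* lines. In the *Dock2* line *Zc3h12a* was lower in females, with lowest, median and highest values of 25.5, 35.4 and 76.9 CPM in 20 females and 32.0, 52.9 and 174 CPM in 22 males (log2 difference -0.55 ± 0.17, SE, adjusted p = 0.0302 by edgeR). It was the one member of 10 called there, against 9.75% of all genes, and all 10 differences were negative. The neutrophil markers summed to 23.3, 58.1 and 368 CPM in females and 48.5, 78.8 and 2430 CPM in males. With their mean as a covariate the difference was -0.26 (adjusted p = 0.146 by edgeR). Of the 79 pathway genes tested 7 were called, near the share of 9.75% over all genes, so the count does not set them apart. Among the 7 were *Nos2* (-2.69 on the log2 scale) and *Lcn2* (-1.96), genes of the antimicrobial response, which were lower in females. The RNA-decay gene *Zfp36l1* was the one that was higher (0.28). In the *Nckap1l* line 0 of 10 members were called by edgeR, against 0.178% of all genes.

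The genes were next followed across the samples of each line. Correlations were computed within each line on log2 CPM after the means of genotype (and of sex in the *Nckap1l* and *Dock2* lines) were removed. P-values are from two-sided permutation tests with 100000 resamples, of which 1e-05 is the smallest possible, adjusted over the 36 relations of the other 9 genes to *Tnfaip3* in 4 lines. Of the 36, 24 passed and all 24 were positive. By Spearman's rho 21 passed, 20 of them positive. The share of all genes that would pass was not computed, so the counts do not set these genes apart.

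*Birc3* followed *Tnfaip3* in all 4 lines. Pearson's r was 0.81 for *Nckap1l* (rho 0.78, n = 31), 0.67 for *Dock2* (rho 0.44, n = 42), 0.58 for *Gpsm3* (rho 0.62, n = 40) and 0.70 for *Dok3* (rho 0.54, n = 47). The permutation p of r was 1e-05, 1e-05, 6e-05 and 1e-05 and that of rho 1e-05, 0.00402, 2e-05 and 0.00013, with adjusted values of at most 0.00024 for r and 0.0103 for rho. Without the 2 samples farthest from the median of *Tnfaip3*, r was 0.79, 0.45, 0.61 and 0.56. With the neutrophil markers regressed out it was 0.70, 0.69, 0.56 and 0.67. Of the 9 genes *Birc3* was the single one that passed in all 4 lines by both r and rho.

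*Nfkbia* was related to *Tnfaip3* with r of 0.75, 0.46, 0.44 and 0.79 in the *Nckap1l*, *Dock2*, *Gpsm3* and *Dok3* lines (rho 0.70, 0.19, 0.49 and 0.43). The permutation p was 1e-05, 0.00306, 0.00513 and 1e-05 for r (adjusted p = 4.5e-05, 0.0058, 0.00923 and 4.5e-05) and 3e-05, 0.231, 0.00139 and 0.00243 for rho (adjusted p = 0.00027, 0.309, 0.00455 and 0.00729). In the *Dock2* line the relation rested on 2 samples, wild-type sample 13 (182 CPM of *Tnfaip3*) and knockout sample 3 (172 CPM), and without them r was -0.03. The same pair moved r of *Tnfaip2* there, which was -0.004 with them and -0.56 without. In 2 other settings of the *Dock2* line this pair stayed in. Without the skin-high samples r was 0.68 for *Nfkbia* and 0.24 for *Tnfaip2* (adjusted permutation p = 0.00036 and 0.181). With the neutrophil markers regressed out r was 0.57 and -0.13 (adjusted permutation p = 0.000396 and 0.441). In the *Dok3* line r of *Tnfaip2* was 0.51 (adjusted permutation p = 0.0010) but 0.23 without the 2 farthest samples. In the remaining lines r of *Nfkbia* without the 2 farthest samples was 0.69 (*Nckap1l*), 0.47 (*Gpsm3*) and 0.49 (*Dok3*). *Tnip1* had r of -0.10, 0.34, 0.06 and 0.11 and passed in the *Dock2* line alone (rho 0.44, permutation p = 0.0292 for r and 0.00315 for rho, adjusted p = 0.0437 and 0.00872), where r was 0.64 without the 2 farthest samples. With the neutrophil markers regressed out, r of *Tnip1* was 0.43, 0.59, 0.28 and 0.78 in the *Nckap1l*, *Dock2*, *Gpsm3* and *Dok3* lines and passed in all but the *Gpsm3* line (adjusted permutation p = 0.0303, 0.00016, 0.130 and 7.2e-05). Without the skin-high samples r of *Tnip1* was -0.55 in the *Nckap1l* line (adjusted permutation p = 0.0412). In the *Dock2* line it was then 0.13 and no longer passed (adjusted permutation p = 0.478). Both the sign of this relation and its call thus depended on the setting.

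**Figure D3:**
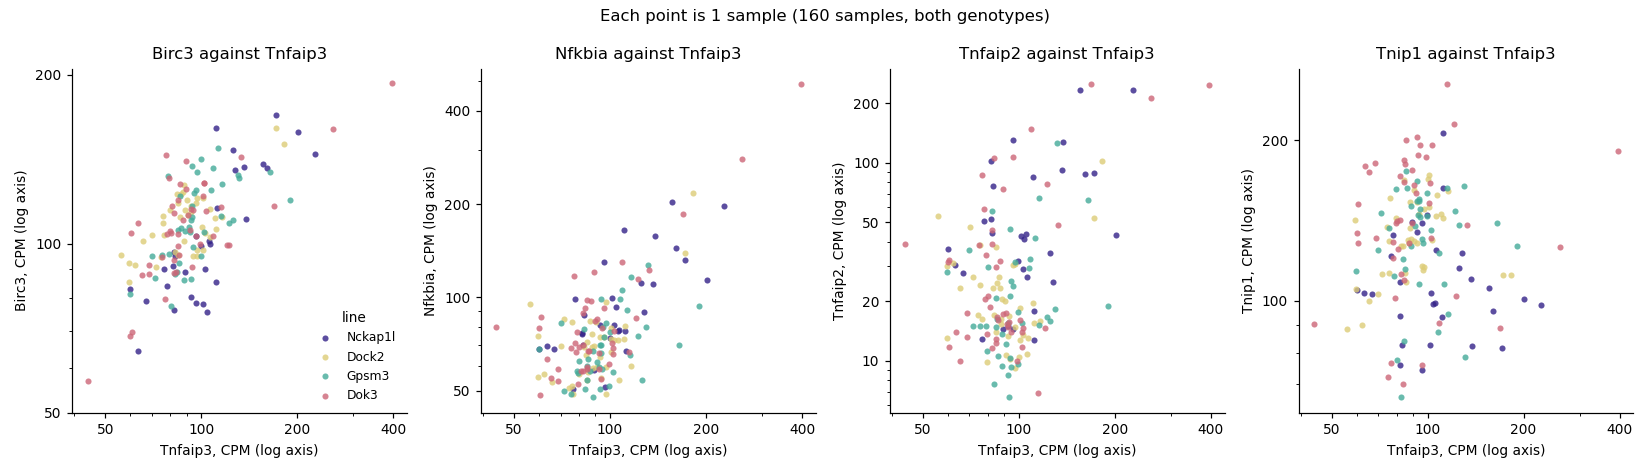
Levels of Birc3, Nfkbia, Tnfaip2 and Tnip1 (vertical axes) against Tnfaip3 (horizontal axis), in CPM on log axes; each point is 1 of 160 samples, coloured by line. Birc3 rises with Tnfaip3 in each line, and the sample at the far right is knockout sample 17 of the Dok3 line, at 396 CPM of Tnfaip3.

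Among themselves the genes moved in a like manner, *Tnip1* apart. Of the 36 pairs without *Tnip1*, 35 had a positive r in all 4 lines, and of the 9 pairs with *Tnip1*, 7 had a negative r in all 4. The closest pair was *Nfkbiz* with *Zc3h12a*, with r from 0.83 to 0.96 over the lines. *Tnfaip2* with *Tnip1* was at the other end, with r from -0.76 to -0.64. These are given as descriptions, since the pairs share samples and sequencing depth. The genes of A20 and its partner ABIN1 had r from -0.10 to 0.34 before, and from 0.28 to 0.78 after, the neutrophil markers were regressed out.

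Over 14112 genes with a mean log2 CPM of at least 1 in every line, the 10 most like *Tnfaip3* by the mean of the 4 within-line r values, each over 31 to 47 samples, were *Ctsz* (0.71), *Birc3* (0.69), *Picalm* (0.68), *Tbk1* (0.67), *Rnf19b* (0.67), *Gmfg* (0.66), *Cemip2* (0.66), *Cyth1* (0.65), *Cebpd* (0.65) and *4933423P22Rik* (0.65). The median over all genes was -0.006. *Nfkbia* ranked 27th, *Nfkbie* 129th, *Nfkbiz* 334th, *Bcl3* 364th, *Tnip3* 599th, *Zc3h12a* 901st, *Tnfaip2* 1645th and *Tnip1* 4848th. *Ctsz* encodes a lysosomal protease, *Tbk1* a kinase of the interferon and NF-κB pathways, *Picalm* an adaptor of clathrin coats and *Cebpd* a transcription factor of the acute-phase response.

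The members were last set against the mean log2 CPM of marker lists of 8 cell types across samples, with p-values adjusted over 400 relations of 10 genes, 10 lists and 4 lines. Relations to skin and striated muscle markers are not given because the samples fell into separate sets by them. For the same reason the B cell list in the *Nckap1l* line and the colon epithelium list in the *Gpsm3* line are not given. With the neutrophil list 37 of 40 relations passed by the permutation test, 33 positive and 4 negative, the 4 being those of *Tnip1*. With the macrophage list 38 of 40 passed (34 positive, 4 negative, again *Tnip1*) and with the T cell list 34 (31 and 3). With the smooth muscle list 17 passed, 16 of them negative. How many of all genes would pass with each list was not computed, so these counts describe the 10 genes only.

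*Tnfaip2* had the closest relation to the neutrophil list, with r of 0.92, 0.89, 0.87 and 0.93 in the *Nckap1l*, *Dock2*, *Gpsm3* and *Dok3* lines (rho 0.92, 0.85, 0.88 and 0.89; permutation p = 1e-05 for each r and rho, adjusted p = 4.8e-05 for r), and 0.90, 0.83, 0.82 and 0.91 without the 2 samples farthest from the median of the list. *Tnip1* ran the other way, with r of -0.61, -0.76, -0.75 and -0.65 (rho -0.71, -0.81, -0.60 and -0.77; adjusted permutation p of r at most 0.00075), and its r to the fibroblast list reached -0.83. Relations to the marker lists were not recomputed without the skin-high samples. *Tnfaip3* was related to the neutrophil list in the *Nckap1l* line (r = 0.60, rho = 0.50, permutation p = 0.00027 and 0.00481, adjusted p = 0.000818 and 0.0110) and in the *Dok3* line by r (0.57, adjusted permutation p = 0.000288) but not by rho (0.18, adjusted permutation p = 0.313). In the *Dok3* line r fell to 0.26 without the 2 farthest samples. In the *Dock2* and *Gpsm3* lines r was 0.06 and 0.15 and did not pass (adjusted permutation p = 0.755 and 0.434). All 8 neutrophil and all 8 macrophage markers reached 1 CPM in at least 1 sample, with medians over all samples from 0.253 CPM (*Mmp8*) to 48.5 CPM (*Ly6g*) and from 19.7 CPM (*Cd68*) to 224 CPM (*Lyz2*).

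**Figure D4:**
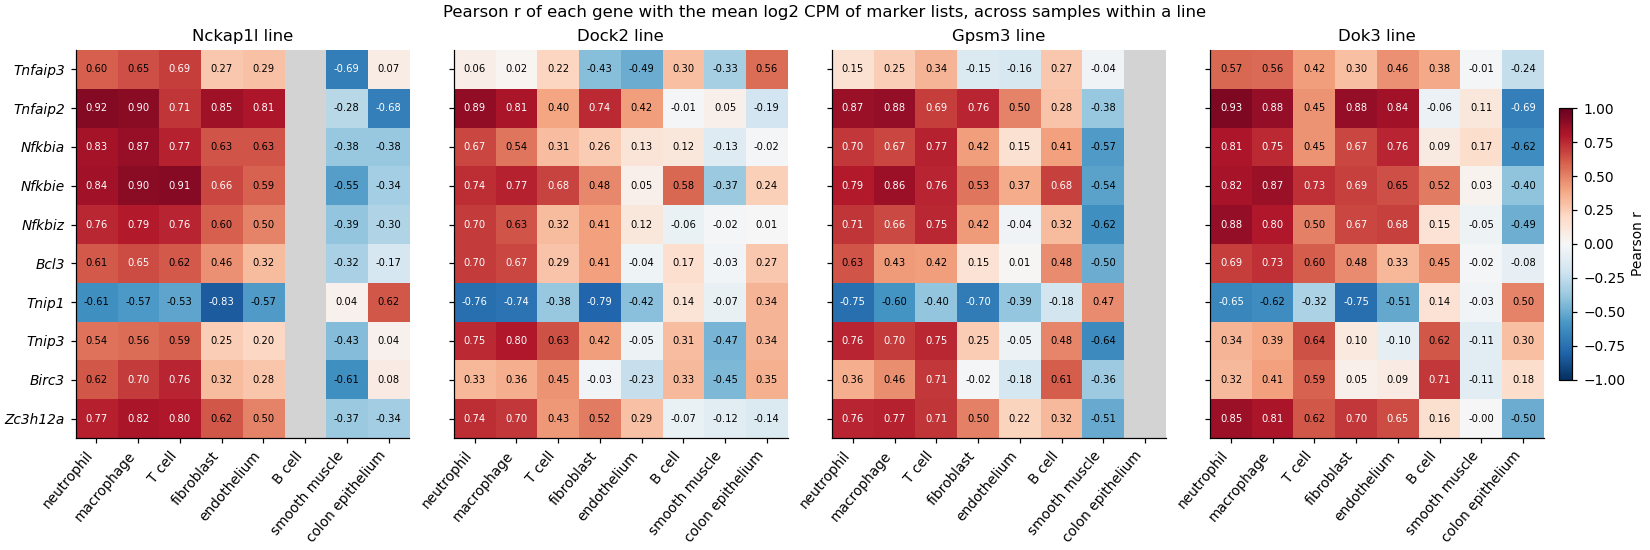
Pearson r across the samples of a line between the log2 CPM of each of the 10 genes (rows) and the mean log2 CPM of 8 marker lists (columns), with genotype and sex means removed; red is positive, blue negative, and grey columns are not given because samples fell into separate sets. Tnfaip2 has the strongest red in the neutrophil column (0.87 to 0.93), and Tnip1 is blue where most other genes are red.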

How the data were processed

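The authors deposited 1 table of raw read counts per sample for 39179 Ensembl genes, with no normalization. Per the labels and the study's methods, reads were aligned to mm10 with STAR and counted with featureCounts of Subread. Versions, the strand setting and the treatment of each sample are not given in the sources used here. Gene names and positions came from GENCODE on GRCm38, the same build, and covered 37607 genes and 99.67% of counts. The labels gave each sample's line and genotype.

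The main test was the quasi-likelihood F test of edgeR 4.0.16 (R 4.3.3) on genes kept by filterByExpr, with TMM factors, with Benjamini-Hochberg adjustment over all genes and a threshold of 0.05. Sex entered the models of the lines that hold both sexes and the fit over all lines. CPM used TMM factors over all samples, and log2 CPM a prior count of 2. Alternatives were DESeq2 1.42.0, limma-voom (limma 3.58.1), RLE factors, filters on low counts (none, or at least 10 counts in every sample), a threshold of 0.01, models without sex, fits of males alone, sample-number blocks, a neutrophil covariate, a prior count of 0.5 and leaving out samples. No per-sample column was left unmapped. The fits were tested on simulated data.

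The genes and lists were chosen with earlier results of these data known. All 10 genes are named, with pathway genes past the threshold (up to 5 by p), the gene of smallest p where an example was needed, and the 10 genes most like *Tnfaip3*. Nothing says that samples of 1 group came from separate litters, so p-values measure the spread between these samples. The closest pair of samples differed by 4.54 times counting noise, so none was the same library counted again. Whether any samples were separate libraries of 1 mouse was not tested.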

Additional observations from a re-analysis of the deposited data

How the results depend on the processing

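Of 77 alternative values of single genes, 73 kept their direction and side of the threshold, and of 76 recomputed counts 61 were equal to the count reported and 15 were not. In all 44 alternatives for knockout against wild type the count of genes called was 0 of 10, but not all were separate tests. The threshold of 0.01 reused the main fits, where none of the 10 was called, so its outcome was fixed in advance. In the *Gpsm3* and *Dok3* lines the limit relative to the line's own spread left out just the skin-high samples, so the same fit was repeated. These repeats add no support, and they are also among the 77 values and 76 counts. Of the 7 genes that differed between wild-type mice of the lines, 4 passed with no filter on low counts, 4 with limma-voom and 3 with the neutrophil markers as a covariate, and the 1 gene called between the sexes in the *Dock2* line fell to 0 with that covariate. Without the skin-high samples, a limit chosen after seeing the data, the count for the knockout effect differing between lines went from 0 to 1, that for wild-type *Nckap1l* against *Gpsm3* mice from 4 to 7 (8.83% of all genes) and that against *Dok3* mice from 1 to 2 (10.6%), and the difference of *Tnfaip3* in the *Dock2* knockouts turned from 0.03 to -0.009 (log2, not called in either). In the same setting *Zc3h12a* in wild-type *Nckap1l* against *Dock2* mice (0.897, adjusted p = 0.0879 by edgeR) and *Tnip1* against *Dok3* mice (-0.396, adjusted p = 0.0584 by edgeR) were no longer called. The cause of these shifts was not tested, and fewer samples were in the fit. In the *Nckap1l* line the samples high in skin genes nearly all belong to 1 run of sample numbers, so both cannot be told apart. The 24 relations to *Tnfaip3*, all positive, became 22 without the 2 farthest samples (20 positive), 25 within sample-number blocks and 27 without the skin-high samples (26 positive, 22 shared with the 24). With the neutrophil markers regressed out 19 passed, of which 17 were shared, *Tnfaip2* and *Zc3h12a* were lost and *Tnip1* gained in the *Nckap1l* and *Dok3* lines, and *Nfkbiz* and *Tnip3* (*Nckap1l*) and *Bcl3* (*Dok3*) were lost. Leaving out samples by a limit relative to the line's own spread was not run in the *Nckap1l* line, where no sample passed it, nor the sample-number block in the *Dock2* line, which holds 1 block. No paired analysis was possible because the labels give no replicate numbers that groups share. Depth did not limit the 10 genes, which were above the counting limit in every sample, but without the treatment of each sample an effect in DSS-treated mice alone could not be tested.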
